A study of Mus musculus with 4 samples.

Results

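The distal end of mouse chromosome 16 carries, in conserved order, counterparts of many genes of human chromosome 21. Of 46 such genes named by symbol, 43 had a row in the table of 25050 genes, and 39 entered the comparison, for which a gene's mean over the libraries had to reach 10 normalised reads. Cxadr, Jam2, Hunk and Sh3bgr lay under that minimum, and Ncam2, Cyyr1 and Clic6 were not analysed here. The 39 genes that entered had means from 136 normalised reads upwards and the 4 that did not had means of at most 2.86, so that no gene of the set passed or failed the minimum by a small margin. The set was proposed because genes of chromosome 16 were higher in this contrast. The group differences below are therefore descriptions, with 95% limits from the fit across all genes, and no test was made of the set.

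An additional copy of human chromosome 21 causes Down syndrome, and mice with an additional copy of this stretch of chromosome 16 are widely used to model it. The stretch holds a cluster of cytokine receptor chains, transcription factors of the ETS and RUNX families, chromatin proteins, an inhibitor of calcineurin signalling, endocytic adaptors and an enzyme of purine synthesis. Other counterparts of human chromosome 21 lie on mouse chromosomes 17 and 10.

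RNA was sequenced from HT-22, an immortalised mouse hippocampal neuronal line, at passages 21 to 24. The 4 libraries fall into 2 of cells labelled wild type and 2 of cells overexpressing Nsmce1, a RING-type subunit of the SMC5/6 chromosome maintenance complex. The series' design text also calls the controls uninduced cells of an inducible system. The promoter, the construct and the number of clones are not given in the sources used here, so an effect of Nsmce1 and any other difference between the 2 cell populations cannot be told apart. The targeted gene, Nsmce1, was high where the labels say so, with 17851 and 16525 normalised reads under overexpression against 1108 and 1206 without it.

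The whole reads behind the values came to 25787452 to 44602989 per library. No label ties the libraries to separate cultures, so limits and p-values reflect the spread between these libraries alone, which may be technical. Of 17 neuron markers 11 had a row and 5 entered the comparison, with summed levels of 3579 to 4333 normalised reads in wild type cells, and 3962 to 3973 in overexpressing libraries. The 10 fibroblast and mesenchyme markers summed to 452755 to 515782 and 421660 to 490325 normalised reads. Astrocyte markers (4 of 6 with a row) summed to 3021 to 3368 in wild type and 4264 to 4560.0 under overexpression, oligodendrocyte markers (4 of 6) to 5396 to 5959 and 5204 to 5341, microglia markers (5 of 6) to 1900 to 2243 and 1542 to 1655, and endothelial markers (4 of 6) to at most 69.5 and 66.0. Only 2 astrocyte, 3 oligodendrocyte, 2 microglia and 3 endothelial markers entered the comparison. A single gene made up nearly all of the astrocyte, oligodendrocyte and microglia sums. These were Slc1a3 (3302 and 2956 in wild type, 4537 and 4245 under overexpression), Cspg4 (5920 and 5323, 5113 and 5273) and Tmem119 (2184 and 1830, 1587 and 1494). The sums therefore do not describe their marker lists as a whole. No marker with a row was at 0 in every library. Genes without reads may have no row, so this does not show that every marker was detected. The part of other cell types in the values below was not tested, and in bulk RNA fewer cells of a type and less RNA per cell cannot be told apart.

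Promoters are shown for 6 of the genes: those with the highest and the lowest group difference (Eva1c and Hlcs), a receptor chain (Ifnar1), an ETS factor (Gabpa), and Gart and Son, which start 852 bases apart on opposite strands. Each is a RefSeq window of 300 bases (GRCm38.p6), 250 before and 50 after the annotated start, 5′ to 3′ on the gene's strand. Capitals mark the letters of a motif that was searched on both strands: CCGGAAG, the core bound by ETS factors such as Gabpa and Ets2, TGTGGTT of RUNX factors, the NRF1 motif, the CCAAT box (CCAAT) and the TATA box (TATAAA). The windows lie at chr16:90830609-90830908 (plus strand, Eva1c), chr16:94290242-94290541 (minus, 1 of 2 annotated Hlcs starts), chr16:91484965-91485264 (plus, Ifnar1), chr16:84834874-84835173 (plus, Gabpa), chr16:91646923-91647222 (minus, Gart) and chr16:91647574-91647873 (plus, Son).
Eva1c: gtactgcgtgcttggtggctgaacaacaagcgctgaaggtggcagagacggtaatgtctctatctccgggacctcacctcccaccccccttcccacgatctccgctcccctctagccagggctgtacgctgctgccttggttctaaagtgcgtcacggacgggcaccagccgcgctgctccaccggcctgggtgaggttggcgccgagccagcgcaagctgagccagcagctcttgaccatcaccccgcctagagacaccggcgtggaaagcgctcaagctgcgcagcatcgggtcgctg
Hlcs: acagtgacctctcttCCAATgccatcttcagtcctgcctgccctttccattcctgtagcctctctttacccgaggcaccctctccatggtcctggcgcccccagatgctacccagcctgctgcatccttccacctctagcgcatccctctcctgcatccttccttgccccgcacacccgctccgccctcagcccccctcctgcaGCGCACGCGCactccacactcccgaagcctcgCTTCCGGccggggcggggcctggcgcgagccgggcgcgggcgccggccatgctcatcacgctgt
Ifnar1: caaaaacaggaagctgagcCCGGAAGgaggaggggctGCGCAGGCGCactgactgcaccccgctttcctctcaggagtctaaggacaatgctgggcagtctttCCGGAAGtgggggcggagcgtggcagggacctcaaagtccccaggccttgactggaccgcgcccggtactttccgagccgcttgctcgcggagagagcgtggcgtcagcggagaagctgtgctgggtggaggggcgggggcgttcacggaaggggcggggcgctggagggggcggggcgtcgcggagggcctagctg
Gabpa: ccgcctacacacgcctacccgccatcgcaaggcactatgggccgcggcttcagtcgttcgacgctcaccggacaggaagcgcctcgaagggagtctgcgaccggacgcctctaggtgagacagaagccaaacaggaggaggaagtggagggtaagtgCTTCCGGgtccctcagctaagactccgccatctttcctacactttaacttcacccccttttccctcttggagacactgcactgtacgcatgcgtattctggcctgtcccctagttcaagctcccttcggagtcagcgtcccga
Gart: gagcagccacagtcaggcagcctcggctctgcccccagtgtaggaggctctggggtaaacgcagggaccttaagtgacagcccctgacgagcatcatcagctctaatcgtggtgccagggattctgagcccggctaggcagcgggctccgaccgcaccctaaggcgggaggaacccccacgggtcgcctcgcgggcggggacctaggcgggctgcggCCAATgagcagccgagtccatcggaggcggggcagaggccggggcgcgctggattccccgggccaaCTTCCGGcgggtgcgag
Son: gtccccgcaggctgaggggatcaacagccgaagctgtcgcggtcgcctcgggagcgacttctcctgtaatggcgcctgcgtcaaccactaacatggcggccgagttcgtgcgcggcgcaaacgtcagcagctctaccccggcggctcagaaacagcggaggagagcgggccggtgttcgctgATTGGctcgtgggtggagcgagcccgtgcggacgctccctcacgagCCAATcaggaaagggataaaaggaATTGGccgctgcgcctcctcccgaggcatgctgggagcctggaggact

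RefSeq windows were found for 38 of the 43 genes, 46 windows in all. The ETS core was present in 12 of the 46 (26.1%), against 17.3% of 12733 windows of all genes that entered the comparison and 8.86% of 32851 windows in the table. Ifnar1 held 2 copies, and Gabpa, Gart and Hlcs 1 each, while the Eva1c window held none of the motifs searched. The NRF1 motif was in 7 windows (15.2%, against 9.79%), the CCAAT box in 18 (39.1%, against 38.7%), the RUNX motif in 3 (6.52%, against 3.70%) and the TATA box in 0 (against 7.19%). The CCAAT box was found 3 times in the Son window and 1 time in that of Gart. The windows had a median GC content of 67.7%, against 60.3% for all genes that entered. These matches are descriptions of the letters only.

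The 39 genes differed little between the groups. Their log2 fold changes (overexpression minus wild type, on the log2(value + 1) scale) ran from -0.48 to 0.34 with a median of 0.02, and 33 of them lay within 0.2 of 0 in either direction. The median over all 15540 genes tested was 0.01. None of the 39 was called by limma over all genes at an adjusted p under 0.05, where 0.193% of genes tested were, and their adjusted p-values ran from 0.563 to 0.999. At an unadjusted p under 0.05 limma called 1, and voom also 1. The share of all genes tested at that unadjusted threshold is not given here, so these counts are no result about the set. The limits of 38 of the 39 included 0, the exception being Synj1, and the upper limit lay under a 1.5-fold increase for 36. Lower limits lay beyond a 1.5-fold decrease for Hlcs (-1.02) and Btg3 (-0.60).

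In all, 23 of the 39 lay above 0 (59.0%, beside 51.3% of all genes tested) and 16 below. Both overexpressing libraries stood above both wild type libraries for 12 genes (30.8%, beside 20.8% of all genes tested). Both stood below for 4 (10.3%, beside 18.3%), and the groups overlapped for the other 23. Without overexpression replicate 1 the lone overexpressing library stood above both wild type libraries for 20, a count that a comparison of fewer libraries raises by its construction.

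**Figure D1:**
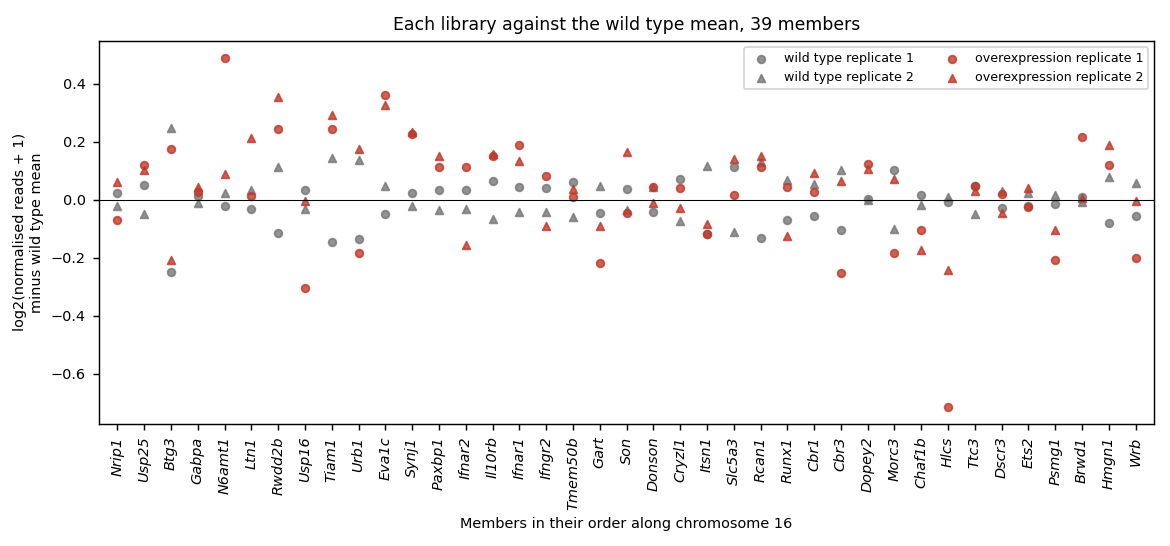
Each of the 39 genes in its order along chromosome 16 (horizontal axis), with the log2(normalised reads + 1) of each library minus the wild type mean (vertical axis). Grey points are the 2 wild type and red points the 2 overexpressing libraries, circles replicate 1 and triangles replicate 2. Both red points stand above both grey ones for 10 of the first 20 genes and for 2 of the last 19.

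Values in the stretch were set beside those of the rest of its chromosome. The 365 tested genes of chromosome 16 that precede Nrip1, the first gene of the set, had a median log2 fold change of 0.20, with 292 above 0 (80.0%). Both overexpressing libraries stood above both wild type libraries for 201 of them (55.1%). The 37 other tested genes that lie among the set had a median of -0.02, with 18 above 0, and their median was 0.03 without the minimum on low values. The 7 tested genes after the last gene of the set had a median of 0.10, with 6 above 0, and stood at -0.002 in overexpression replicate 1 and 0.22 in replicate 2 against the wild type mean. None of these differences between regions was tested, and the higher values on chromosome 16 were what prompted the choice of the set.

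Medians were lower from the start of the set on. The last 25 genes before Nrip1, from Tbc1d23 to Hspa13, had a median of 0.38 and 25 of 25 lay above 0. Among them Gbe1, the glycogen branching enzyme, stood at 0.52 and Cggbp1, which encodes a CGG repeat binding protein, at 0.40, named here after their values were seen. Hspa13, a counterpart of human chromosome 21 and the direct neighbour of Nrip1, stood at 0.13, and Nrip1 at -0.003. The first 20 genes of the set in order, Nrip1 to Son, had a median of 0.09. Both overexpressing libraries stood above wild type for 10 of them (50%, beside 20.8% of all genes tested), a share within the range of 36.0% to 68.0% over blocks of 50 genes before Nrip1. The last 19, Donson to Wrb, had a median of 0.01 and 2 such genes (10.5%).

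Each overexpressing library showed the same order of medians, though both were set against the same wild type mean and so are not independent. Against the wild type mean, overexpression replicate 1 had a median of 0.19 over the genes before Nrip1 and 0.04 over the 39 genes. Overexpression replicate 2 had medians of 0.21 and 0.06. The median difference between the wild type libraries was -0.003 over the genes before Nrip1 and 0.02 over the 39, and between the overexpressing libraries 0.02 and 0.03. Within 50-gene blocks before Nrip1, medians lay between 0.11 and 0.31, with the 15 nearest genes at 0.34. Pcyt1a, an enzyme of phosphatidylcholine synthesis, was the 1 called gene of the chromosome and lies before Nrip1.

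**Figure D2:**
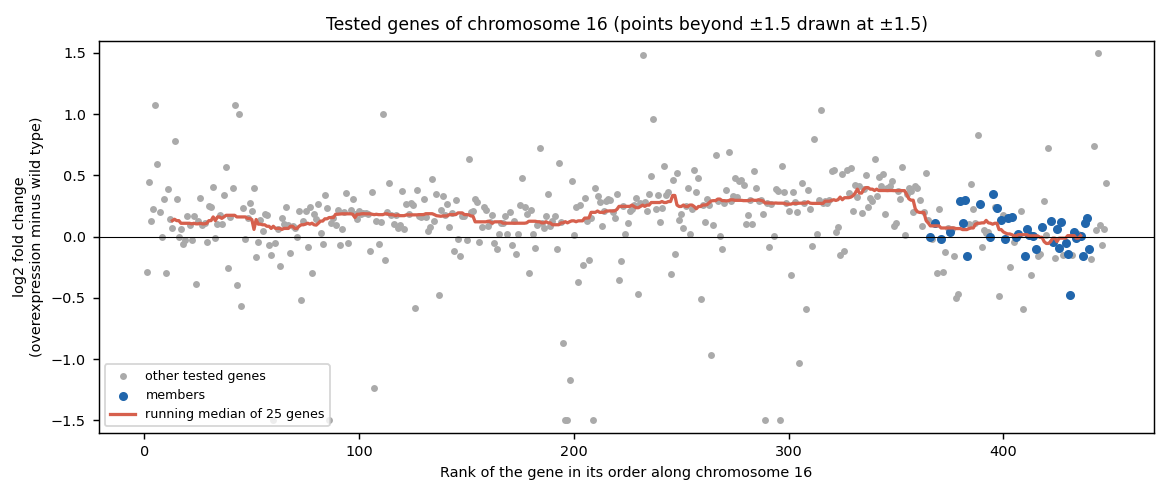
The log2 fold change (vertical axis) of the 448 tested genes of chromosome 16 by rank in their order along it (horizontal axis), with the set in blue, the other genes in grey and a running median of 25 genes as a red line. Points beyond 1.5 in either direction are drawn at 1.5. The line peaks at 0.40 before the blue points and lies near 0 among the later ones.

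The cytokine receptor chains are 4 neighbours of the class II receptor family. Ifnar1 and Ifnar2 form the receptor of type I interferons, Ifngr2 is a chain of the interferon gamma receptor, and Il10rb is shared by the receptors of interleukin 10 and related cytokines. Ifnar1 had wild type values of 2828 and 2661 normalised reads against 3124 and 3010.4 under overexpression (log2 fold change 0.16, limits -0.04 to 0.36). Il10rb had 883 and 806 normalised reads without and 937 and 940.2 with overexpression (0.15, limits -0.09 to 0.40). For both genes the overexpressing libraries stood above the wild type ones.

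For the other two chains the groups overlapped. Ifnar2 had wild type values of 1003 and 959 normalised reads against 1061 and 880.4 under overexpression (log2 fold change -0.02, limits -0.32 to 0.28). Ifngr2 had 2023 and 1909, and 2079 and 1845 (-0.01, limits -0.24 to 0.23). Overexpression replicate 1 was the highest library for each of these genes and replicate 2 the lowest. Per kilobase of exon, Ifngr2 (522 normalised reads in wild type) and Ifnar1 (462) stood above Ifnar2 (295) and Il10rb (222). Overexpressing libraries kept this order of levels, at 521, 516, 292 and 246.

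Partners of these chains were counted beside them. Of 11 other receptor chains, Janus kinases and STAT factors, 8 entered the comparison, 4 above 0 and 4 below, with 0 called and a median of 0.01. The kinase Jak2 had 1843 and 1772 normalised reads without and 2202 and 2168 with overexpression (0.27, limits 0.07 to 0.47, limma adjusted p = 0.467). Of 15 interferon targets 14 entered, 6 above 0 and 8 below, with 0 called and a median of -0.01. The antiviral synthetase Oas1a had 74.2 and 43.2 normalised reads without and 165 and 139 with overexpression (2.64-fold, limma adjusted p = 0.284). Its mean reached the 100 normalised reads asked of named genes only through the overexpressing libraries. Oasl2, of the same family, stood at -0.30 and Bst2, encoding tetherin, at 0.31.

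The 6 transcription factors and co-regulators of the set stood between -0.04 and 0.13, 3 above 0 and 3 below. Gabpa, the DNA-binding subunit of GA-binding protein, had wild type values of 3251 and 3194 normalised reads against 3280.0 and 3324 under overexpression (log2 fold change 0.04, limits -0.15 to 0.22). The overexpressing libraries stood above the wild type ones, by less than the SE of 0.0745. Gabpa overlaps Atp5j (2231 to 2440 normalised reads) on the opposite strand. Reads of one may be counted for the other unless counting was stranded. Ets2 had 2631 and 2712, and 2626 and 2747 (0.01, limits -0.19 to 0.20). Runx1, which directs blood formation, had 592 and 652, and 640.0 and 570.1 (-0.04, limits -0.34 to 0.26). Both genes overlapped between the groups.

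Nrip1, a corepressor of nuclear receptors, stood at -0.003 and the antiproliferative gene Btg3 at -0.02. Btg3 varied more between replicates than between groups, with 149.6 and 212 normalised reads without and 201 and 154 with overexpression. Paxbp1, which links PAX factors to histone methylation, had 2323 and 2213, and 2454 and 2517, and stood at 0.13 with separated groups. Of 12 partners of the GABP, RUNX and ETS families 11 entered, 8 above 0 and 3 below, with a median of 0.04 and 0 called. Ets1 stood at 0.18 and Etv4 at -0.30. Elk4 stood at 0.27 from 1 low library, with 1219 normalised reads in wild type replicate 1 and 1731 to 1774 in the others.

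Among chromatin proteins, Hmgn1, a nucleosome-binding protein that loosens chromatin, had the highest level of the set per kilobase of exon, 3563 normalised reads in wild type against 3962 under overexpression. Its normalised reads were 10843 and 12112 without and 12448 and 13078 with overexpression (log2 fold change 0.15, limits -0.05 to 0.36). The groups did not overlap, although the lower overexpressing library was close to the higher wild type one. Brwd1, a bromodomain protein, stood at 0.11, with 3769 normalised reads in overexpression replicate 1 and 3223 to 3261 in the other libraries.

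Chaf1b, a subunit of the CAF-1 histone chaperone, was lower in both overexpressing libraries. It had 3771 and 3685 normalised reads without and 3469 and 3302 with overexpression (-0.14, limits -0.33 to 0.05). Morc3, an ATPase of nuclear bodies, overlapped between the groups at -0.06. Of 9 other chromatin assembly genes 6 lay above 0 and 3 below (median 0.10, 0 called). The chaperones Asf1a and Asf1b stood at 0.29 and -0.16, with overlapping groups for Asf1a (744 and 543 without, 709 and 857 with overexpression), and Hira, a chromosome 16 gene outside the set, at 0.21.

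Son, a nuclear speckle protein needed for splicing, had wild type values of 15766 and 14996 normalised reads against 14896 and 17243 under overexpression (log2 fold change 0.06, limits -0.17 to 0.28). The overexpressing libraries stood on either side of both wild type ones. Donson, a replication fork protein, stood at 0.02 and Urb1, a nucleolar ribosome biogenesis factor, at -0.003. Son and Donson overlap on opposite strands in the annotation, so that reads of one may be counted for the other unless counting was stranded.

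Gart, a multifunctional enzyme of purine synthesis, begins next to Son and points the other way. It had 2328 and 2484 normalised reads without and 2067 and 2256 with overexpression (-0.16, limits -0.37 to 0.06). Both overexpressing libraries lay below both wild type ones, while those of Son lay on either side. Of 11 other purine synthesis genes 4 lay above 0 and 7 below (median -0.05, 0 called), with Paics at -0.22, Atic at -0.18 and Adss at 0.15. Cryzl1 and Itsn1, whose starts are 569 bases apart on opposite strands, stood at 0.01 and -0.10, with overlapping groups for both.

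Ubiquitin and quality control genes divided into 3 above and 3 below 0. Usp25, a deubiquitinase, had wild type values of 1626 and 1518 normalised reads against 1708 and 1688 under overexpression (0.11, limits -0.10 to 0.33). Ltn1, the ubiquitin ligase of stalled ribosomes, stood at 0.11 and Ttc3, a RING ligase, at 0.04. Usp16, a histone H2A deubiquitinase, had 1213 and 1159.5 normalised reads without and 960.0 and 1183 with overexpression (-0.15, limits -0.46 to 0.15). Its low value rested on overexpression replicate 1, as replicate 2 lay between the wild type libraries. Usp16 overlaps Cct8 (8350 to 10231 normalised reads) on the opposite strand. Reads of Cct8 may be counted for Usp16 unless counting was stranded.

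Psmg1, a chaperone of proteasome assembly, was lower in both overexpressing libraries, with 517 and 528 normalised reads without and 452 and 486 with overexpression (-0.16, limits -0.44 to 0.13). Wrb, a receptor for insertion of tail-anchored proteins, stood at -0.10 with overlapping groups. Of 15 partners in proteasome assembly, tail-anchor insertion and ribosome quality control 13 entered, of which 5 lay above 0 and 8 below (median -0.07, 0 called). Psmg2, which pairs with Psmg1, had wild type values of 1065 and 1103 normalised reads against 858 and 838 under overexpression (-0.35, limits -0.58 to -0.12, limma adjusted p = 0.412). Asna1, the tail-anchor ATPase, stood at -0.17 and Sgta at 0.16.

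Signalling and endocytosis genes held several of the higher values. Tiam1, an exchange factor that activates Rac, had 1797 and 2199 normalised reads without and 2357 and 2434 with overexpression (log2 fold change 0.27, limits -0.01 to 0.55). The wild type libraries lay further apart than the gap between the groups. Synj1, a phosphoinositide phosphatase of endocytosis, had 1464 and 1418, and 1686 and 1696 (0.23, limits 0.03 to 0.44, limma adjusted p = 0.563 over all genes). Here each pair of libraries was close together and the groups stood apart.

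Itsn1, an endocytic scaffold that works with synaptojanin, stood at -0.10, and Rcan1, an inhibitor of calcineurin, at 0.13. Rcan1 had wild type values of 487 and 583 normalised reads against 576 and 591 under overexpression, so that wild type replicate 2 lay among the overexpressing ones. Dopey2 was separated upwards at 0.12, Dscr3, a subunit of the retriever sorting complex, stood at -0.01 and Tmem50b at 0.02. Of 18 tested endocytosis genes 10 lay above 0 and 8 below (median 0.01), and of 17 genes of the commander and retromer complexes 5 above and 12 below (median -0.08), with 0 called in each list. Dynamin gene Dnm1 stood at 0.29, Commd1 at -0.35 and Commd9 at -0.28. The values of Fcho2 (0.32), Commd2 (0.31) and Sh3gl3 (-0.28) each rested on 1 low library. Fcho2 had 1632 normalised reads in wild type replicate 2 and 2714 to 3019 in the other libraries. Commd2 had 621 in wild type replicate 1 and 913 to 1083 in the others, and Sh3gl3 304 in overexpression replicate 2 and 432 to 447 in the others.

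Calcineurin and NFAT genes numbered 11, with 7 above 0 and 4 below (median 0.08, 0 called). Rcan2, the paralogue of Rcan1 on chromosome 17, had 124 and 103 normalised reads without and 209 and 172 with overexpression (0.74, limits 0.25 to 1.23, limma adjusted p = 0.418). The catalytic subunit Ppp3cb had 3838 and 3766, and 2993 and 3072 (-0.33, limits -0.51 to -0.14, limma adjusted p = 0.316). Both genes had groups that did not overlap. Nfatc4 stood at 0.27.

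Enzymes and transporters gave the lowest value of the set. Hlcs, which attaches biotin to carboxylases, had wild type values of 157 and 159 normalised reads against 96.0 and 134 under overexpression (-0.48, limits -1.02 to 0.06). The overexpressing libraries lay below wild type and apart from each other. The biotin-dependent carboxylases divided into 4 above and 3 below 0 of 7 (median 0.06, 0 called), with Acacb at -0.36, Mccc1 at 0.17 and Pcx at 0.13.

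N6amt1, a methyltransferase of a translation release factor, stood at 0.29 (limits -0.17 to 0.74), from 189.9 and 196 to 271 and 205 normalised reads. Overexpression replicate 1 was the high library there, and replicate 2 lay close to wild type. The carbonyl reductases Cbr1 and Cbr3 are paralogues. Cbr1 had 561 and 606 normalised reads without and 593 and 622 with overexpression (0.06), and Cbr3 851 and 984, and 767 and 958 (-0.09), with overlapping groups for each. As related copies they can share reads, which makes their values less certain.

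Slc5a3, the myo-inositol cotransporter, had wild type values of 4352 and 3725 normalised reads against 4072 and 4436 under overexpression (0.08, limits -0.17 to 0.33). It overlaps the mitochondrial ribosomal protein gene Mrps6 on the same strand, so reads can be split between them and both are uncertain. Mrps6 stood at -0.14. In all, 12 genes of the set overlap another gene with values, 11 of them on the opposite strand, where reads may be miscounted unless counting was stranded.

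Eva1c, a receptor of the SLIT guidance ligands, gave the highest value, with 158 and 169.6 normalised reads without and 211 and 206 with overexpression (0.34, limits -0.04 to 0.73). Rwdd2b, of unassigned role here, followed with 182 and 214, and 234 and 253 (0.30, limits -0.10 to 0.70). The groups of both genes were separated, at levels where the limits span a wide range. The adhesion genes Cxadr and Jam2 were near absent: Cxadr had 0 reads in 3 libraries and 1 in overexpression replicate 2, and Jam2 had 3, 0, 4 and 5 reads. Hunk had 0 reads in 3 libraries and 6 in overexpression replicate 2, and Sh3bgr 0, 3, 6 and 0. A count of 0 allows up to 3 reads, or 2.19 to 3.77 normalised reads by library, so no difference was detectable for these 4 genes at this depth.

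**Figure D3:**
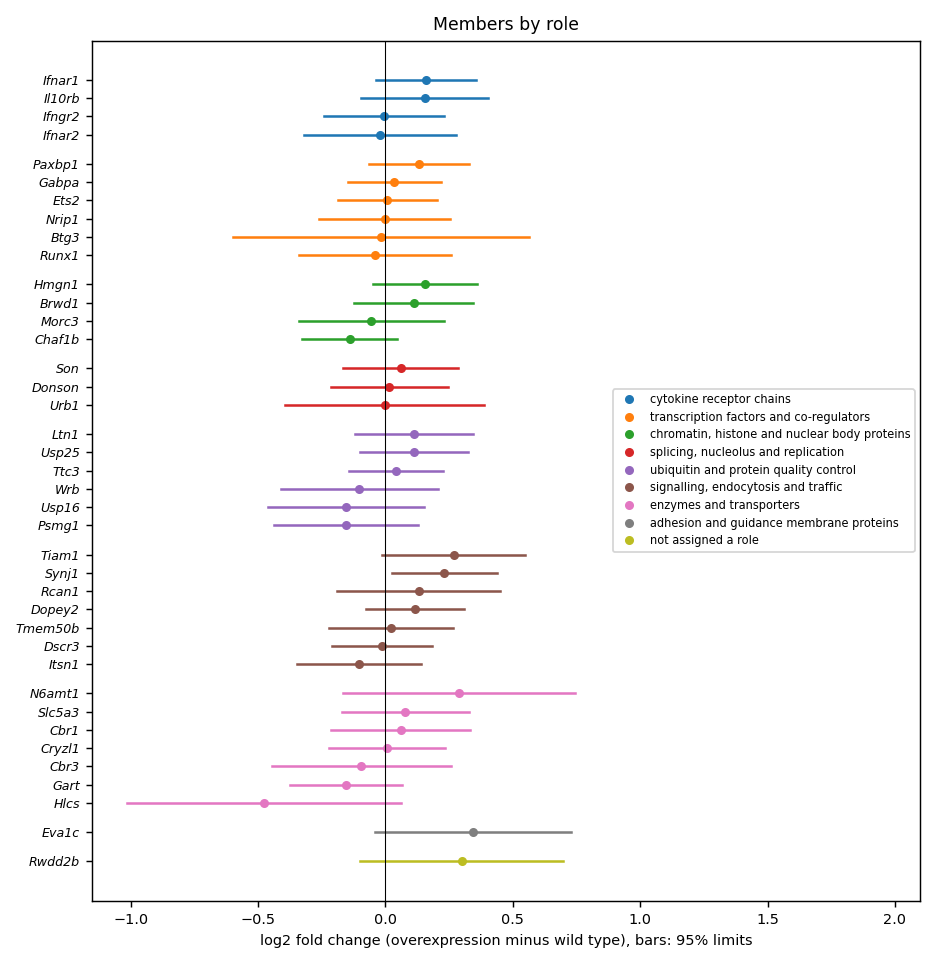
Log2 fold change (horizontal axis, points) with 95% limits (bars) for the 39 genes, grouped and coloured by role. The limits of Synj1 lie above 0 and those of the other 38 genes include it, and Hlcs and Eva1c mark the lowest and highest points.

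Levels per kilobase of exon kept nearly the same order in both groups. In wild type the highest were Hmgn1 (3563 normalised reads per kilobase), Son (1032), Morc3 (1013), Chaf1b (796) and Cbr3 (732). In overexpressing cells the same genes came first in the same order, at 3962, 1078, 976, 723 and 688. Hlcs was the lowest gene that entered, at 17.7 and 12.9.

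Genes of like abundance on other chromosomes gave a scale for these differences. From 1000 to 10000 normalised reads, the 21 genes of the set had a median log2 fold change of 0.04, against 0.01 for 5985 genes elsewhere, and a median absolute value of 0.11 against 0.08. From 100 to 1000, the 16 genes had medians of -0.003 and 0.10, against 0.002 and 0.12 for 4858 genes. Between 100 and 1000 reads the replicates of the set lay at least as far apart as its groups, with median absolute log2 differences of 0.12 (wild type) and 0.15 (overexpression). Between 1000 and 10000 they lay closer together than the groups, at 0.08 and 0.06. Genes elsewhere had replicate differences of 0.15 and 0.16 at the lower level and of 0.09 and 0.10 at the higher one. A difference between single libraries varies more than a difference between group means, so the replicate and group figures are unlike measures. Above 10000 reads the set held Son and Hmgn1 alone, with a median log2 fold change of 0.11 against -0.02 for 457 genes elsewhere.

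**Figure D4:**
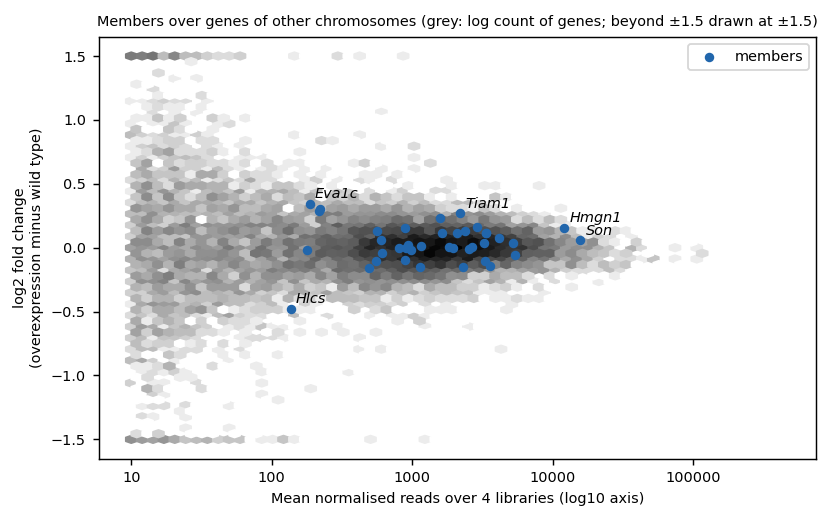
Log2 fold change (vertical axis) against mean normalised reads on a log10 axis (horizontal axis), with the 39 genes in blue over the density of tested genes of other chromosomes in grey. The blue points lie within the grey cloud at their level, with Hlcs and Eva1c at the low end of abundance and Son and Hmgn1 at the high end.

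Counterparts of human chromosome 21 outside the set were listed by their place in the mouse genome. Of 46 others on chromosome 16, 25 had a row and 22 entered, 11 above 0 and 11 below, with a median of -0.02 and 0 called. Among those of at least 100 normalised reads, the matrix proteases Adamts1 and Adamts5 had the largest differences. Adamts1 had 1886 and 1719 normalised reads without and 1226 and 1317 with overexpression (-0.50, limits -0.74 to -0.27, limma adjusted p = 0.203). Adamts5 stood at -0.47 and Atp5o, an ATP synthase subunit, at -0.16.

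On chromosome 17 only 6 of 19 counterparts entered, 3 above and 3 below 0, with a median of 0.01. The methyltransferase subunit gene Wdr4 stood at -0.37 from 1 low library, with 361 normalised reads in overexpression replicate 2 and 556 to 602 in the others. Ndufv3, of respiratory complex I, stood at 0.24 with overlapping groups (2634 and 1868 without, 3020.0 and 2275 with overexpression), and the splicing factor U2af1 at -0.13. On chromosome 10, 28 of 32 entered, 19 above 0 and 9 below, with a median of 0.15. Both overexpressing libraries stood above wild type for 13 of the 28 and below for 0, beside 20.8% and 18.3% of all genes tested. The other genes of chromosome 10 were not set beside them, so whether this is particular to these counterparts was not tested. Col18a1, a basement membrane collagen, had wild type values of 2086 and 1857 normalised reads against 3178 and 2632 under overexpression (0.55, limits 0.26 to 0.85, limma adjusted p = 0.274). Ybey stood at 0.55, and Pttg1ip at -0.72 from 1 low library (1351 normalised reads in overexpression replicate 1 against 3941 to 4338 in the others). None of these lists held a called gene.

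**Figure D5:**
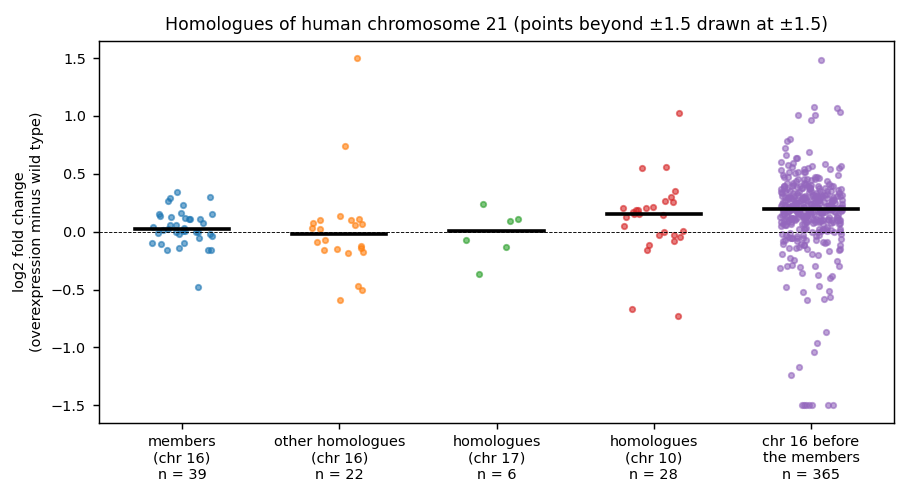
Log2 fold change (vertical axis) of counterparts of human chromosome 21 by place in the mouse genome, beside the genes of chromosome 16 that precede the set, with 1 point per gene, those beyond 1.5 drawn at 1.5, and black bars at the medians. The bars of the set, the other chromosome 16 counterparts and those on chromosome 17 lie at 0.02, -0.02 and 0.01, and those of chromosome 10 and of the preceding genes at 0.15 and 0.20.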

How the data were processed

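The deposited table gives 1 value per gene and library, deposited on a log2 scale (log2 of normalised reads + 1). That unit was worked out from the values: with the log2 undone, 100% of values were whole multiples of 1 step per library within 0.001 read. HISAT, Cufflinks and build mm9 are named without versions, per the submitters' processing notes. The counting tool and its strand setting: not given in the sources used here.

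Groups came from the sample titles. limma 3.58.1 (R 4.3.3) with a mean-variance trend was fitted to these values, with no covariate beside group, over the 4 libraries and the 15540 genes with a mean of at least 10 normalised reads (9510 lay below). P-values are two-sided and Benjamini-Hochberg adjusted over all genes, threshold 0.05. With 2 libraries against 2 no exact permutation p below 0.333 exists, so p-values rest on limma's pooled variance (6.10 total degrees of freedom). Fold changes understate those of low genes. Replicates differed beyond counting noise (mean chi-square per gene 18.4 and 25.3). Chromosome, order, strand, overlap and exon length came from GENCODE M21 (GRCm38) by identifier, whose build differs from mm9, so no gene coordinates are given; promoter windows came from RefSeq by symbol. The steps were tested on simulated data, with changes larger than any in the set, so recovery of differences as small as those reported was not tested. Members and lists were chosen with earlier results of these data known, and so were the named genes: all members, and from each list up to 3 of at least 100 normalised reads with the largest difference, plus any called. The promoters of Eva1c, Hlcs and Gabpa were picked after their values were seen. Alternatives were other pseudocounts, filters, scalings and limma settings, voom, a replicate block and each library left out.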

Additional observations from a re-analysis of the deposited data

How the results depend on the processing

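The median log2 fold change of the 39 genes was 0.0222 and was 0.0398 without the minimum on low values (43 genes) and 0.0283 to 0.0620 with a library left out. The number above 0 ran from 23 to 27 over the 14 alternatives, and 0 of the genes were called under any of them. The 27 came without the minimum on low values, among 43 genes rather than 39. The number with both overexpressing libraries above wild type was 12, and 11 with quantile normalization and 16 to 20 with a library left out. The median of the genes before Nrip1 was 0.197, and 0.191 to 0.212 with a library left out; that of the other genes among the set was -0.0208, and 0.0258 without the minimum, 0.0160 at a minimum of 100 normalised reads, -0.0312 with quantile normalization, -0.0257 with voom and -0.0982 to 0.00386 with a library left out, so its sign is not settled. These last 2 medians were added after seeing the data. The windows of 25 and 50 genes before Nrip1 were not planned. Nor was the division of the set into its first 20 and last 19 genes. Calls over all genes numbered 30, and 16 without the minimum, 18 with quantile normalization, 9 without a trend and 2 to 75 with a library left out (2 without wild type replicate 1, 9 without wild type replicate 2, 51 without overexpression replicate 1, 75 without overexpression replicate 2), where the lone library is taken to vary like the other group. Of 546 values of single genes under the alternatives, 2 moved beyond the replicate spread, both with quantile normalization. That count cannot measure robustness. A library left out cannot shift a value beyond this spread by construction, and the filters, the trend setting and the block leave each value unchanged. Under at least 1 setting 17 genes changed sign, all within 0.103 of 0 as reported. With the replicate number as a block 60 genes were called. The numbers share no stated source, and the deviations of same-numbered libraries correlated with r = 0.00682 across genes. Because each number holds 1 library per group, the block cannot change the median of the 39 genes or their number above 0. At an unadjusted p under 0.05 limma called 2 of them with the block and 1 without it. The share of all genes tested at that threshold is not given here either. Depth and 2 libraries a group limit the low genes most: the upper limit reached a 1.5-fold increase for Eva1c, N6amt1 and Rwdd2b. The lower limit reached a 1.5-fold decrease for Hlcs and Btg3.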
